A study of Mus musculus with 4 samples.

Results

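The genes described here code for the subunits of the mitochondrial oxidative phosphorylation system that are encoded in the nucleus. They were chosen by name: every gene on the array whose symbol follows the naming of the subunits of complex I (Ndufa, Ndufb, Ndufc, Ndufs and Ndufv), complex II (Sdha to Sdhd), complex III (Uqcr genes and Cyc1), complex IV (Cox4 to Cox8) or complex V, the ATP synthase (Atp5a to Atp5o). The names of 84 genes of 35715 on the array matched. Of these, 81 were well above background on all 4 arrays, as were 19381 of all genes. The other 3, Cox7b2, Cox8b and Cox8c, were below the detection limit on every array and are given no difference. One of the 81, Atp5c1-ps, is named as a pseudogene of Atp5c1.

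The arrays profiled 3D-retinas, which are retinal tissue raised in floating culture by the SFEBq aggregation method from a mouse Nrl-GFP iPSC line, whose green fluorescent reporter marks rods. The 4 groups received 4-OHT alone at 5 µM (4-hydroxytamoxifen, the active metabolite of the drug tamoxifen), the same 4-OHT dose plus vitamin E at 400 µM, the same dose plus lutein at 200 nM, or ethanol, the vehicle. Retinas picked for bright green fluorescence were exposed from differentiation day 23, and RNA was taken on day 25, at which point, by the labels, rod fluorescence had ceased to rise. Each group is 1 pool of 24 retinas on 1 array, so no comparison has a replicate, a test or an error between cultures, and every difference below describes these 4 arrays.

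Complexes I to IV form the respiratory chain of the inner mitochondrial membrane: complexes I and II pass electrons from NADH and succinate to ubiquinone, complex III passes them to cytochrome c, and complex IV passes them to oxygen. Complexes I, III and IV pump protons as they do so, and complex V uses the proton gradient to make ATP. Photoreceptors hold dense mitochondria in the inner segment and are among the most energy-demanding cells of the body, and the nuclear genes for the subunits are known to be transcribed together under the factors NRF1, GABP, YY1 and the estrogen-related receptors. The mitochondrially encoded subunits were not analysed here.

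Several subunits have an alternative isoform or paralogue gene, and 4 such pairs carried the main contrast among the members. Their 60-base probes are shown because the array reads each gene through its probe alone. Positions are those of the array design on mm9, and capitals mark the longest run of letters that the probes of a pair share. The run was 7 letters for Ndufa4 and Ndufa4l2, 4 for Cox6a1 and Cox6a2, 7 for Cox4i1 and Cox4i2, and 6 for Cox7a2 and Cox7a2l. The probes of a pair were compared with each other, not with the partner's transcript. A short run thus does not show that a probe reads only its own gene.
Ndufa4l2, chr10:126954149-126954208, plus strand: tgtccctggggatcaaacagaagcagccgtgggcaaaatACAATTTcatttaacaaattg
Ndufa4, chr6:11850423-11850482, minus strand: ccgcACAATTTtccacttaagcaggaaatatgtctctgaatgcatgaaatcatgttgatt
Cox6a2, chr7:135349160-135349219, minus strand: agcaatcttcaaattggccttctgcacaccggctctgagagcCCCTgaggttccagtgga
Cox6a1, chr5:115795726-115795785, minus strand: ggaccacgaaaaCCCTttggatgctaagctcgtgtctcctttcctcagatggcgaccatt
Cox4i2, chr2:152590711-152590770, plus strand: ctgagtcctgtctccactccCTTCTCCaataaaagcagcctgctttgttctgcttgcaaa
Cox4i1, chr8:123197924-123197983, plus strand: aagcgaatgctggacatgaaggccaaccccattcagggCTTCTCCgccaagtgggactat
Cox7a2l, chr17:83901272-83901331, minus strand: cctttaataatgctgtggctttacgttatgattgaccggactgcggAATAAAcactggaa
Cox7a2, chr9:79603215-79603274, minus strand: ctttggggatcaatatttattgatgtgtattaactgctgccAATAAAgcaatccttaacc

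Promoter motifs found among the members are illustrated by 4 promoters, those of Sdhd (complex II), Atp5l (complex V), Cox6a1 (complex IV) and Ndufs7 (complex I), chosen because together they hold all of these motifs. Being picked for their matches, they are not typical of the members. Of 62 members that are no alternative isoform or paralogue gene, 28 held none of the motifs. Ndufa4, the member lowest with 4-OHT against vehicle, also had no match. The 4 promoters are RefSeq windows of 300 bases on GRCm38.p6, from 250 bases before to 50 after the transcription start, written along the gene. Both strands were searched for GCGCANGCG (the NRF1 core), CCGGAAG (the ETS core bound by GABP), AAGATGGCG (YY1), AAGGTCA (the core of estrogen-related receptor sites) and TGATGNAA (a core bound by ATF4, a factor of the stress response). Capitals mark the matches, and in Cox6a1 2 matches of the NRF1 core on opposite strands overlap.
Sdhd promoter, chr9:50603800-50604099, minus strand: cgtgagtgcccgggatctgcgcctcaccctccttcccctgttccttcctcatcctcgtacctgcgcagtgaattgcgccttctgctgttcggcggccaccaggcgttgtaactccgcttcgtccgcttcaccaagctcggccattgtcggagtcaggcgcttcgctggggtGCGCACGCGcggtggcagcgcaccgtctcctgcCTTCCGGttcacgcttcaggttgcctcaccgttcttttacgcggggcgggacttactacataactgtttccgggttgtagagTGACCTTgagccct
Atp5l promoter, chr9:44920693-44920992, minus strand: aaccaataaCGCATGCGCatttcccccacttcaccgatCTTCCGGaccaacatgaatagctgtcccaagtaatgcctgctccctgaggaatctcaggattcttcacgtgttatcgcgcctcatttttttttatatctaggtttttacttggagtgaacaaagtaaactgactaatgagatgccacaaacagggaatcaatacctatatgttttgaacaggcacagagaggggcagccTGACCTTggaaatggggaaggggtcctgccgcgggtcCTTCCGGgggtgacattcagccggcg
Cox6a1 promoter, chr5:115348909-115349208, minus strand: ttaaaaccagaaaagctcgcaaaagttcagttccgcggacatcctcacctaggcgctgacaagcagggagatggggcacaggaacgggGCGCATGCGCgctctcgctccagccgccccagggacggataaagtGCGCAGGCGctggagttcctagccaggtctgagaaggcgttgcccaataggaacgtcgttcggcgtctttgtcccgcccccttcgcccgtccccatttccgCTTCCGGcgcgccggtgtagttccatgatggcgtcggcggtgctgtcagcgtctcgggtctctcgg
Ndufs7 promoter, chr10:80249199-80249498, plus strand: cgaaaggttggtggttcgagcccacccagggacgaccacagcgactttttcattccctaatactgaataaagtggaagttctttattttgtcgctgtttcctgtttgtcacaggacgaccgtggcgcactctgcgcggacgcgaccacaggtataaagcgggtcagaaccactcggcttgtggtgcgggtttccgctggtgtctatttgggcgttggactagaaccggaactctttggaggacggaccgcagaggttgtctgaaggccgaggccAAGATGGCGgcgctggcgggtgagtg

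A RefSeq window was matched for 65 of the 81 measured members. The NRF1 core was present in 19 of the 65 (29.2%), against 6.47% of the windows of all 27025 genes. The ETS core was in 15 members (23.1%), against 9.12% of all genes, the YY1 motif in 6 (9.23%), against 1.49%, and the core of estrogen-related receptor sites in 8 (12.3%), against 4.66%. The ATF4 core was in 0 of the 65 members, against 4.06% of all genes. Among the 62 members that are no alternative isoform or paralogue gene, the median log2 difference of 4-OHT minus vehicle was -0.87 in the 19 with the NRF1 core and -0.80 in the 43 without, and it was -0.80 in the 34 with any of these motifs and -0.83 in the 28 without. The core of estrogen-related receptor sites went with the lower median, -0.91 in the 8 members with it and -0.78 in the 54 without, the YY1 motif with the higher one, -0.73 in 6 and -0.83 in 56, and for the ETS core the medians were -0.80 in 15 and -0.82 in 47. The gaps thus ran in both directions, were not tested, and rest on few members for the YY1 and estrogen-related receptor motifs. A match is a run of letters, not a bound site. The 27025 windows were not limited to genes detected or bright on these arrays. The shares thus do not show that the motifs are particular to the subunit genes.

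After 4-OHT the subunit genes were lower than in vehicle as a block, across all 5 complexes. The median log2 difference was -0.78, and the middle 50% of the members lay between -0.90 and -0.64. Of the 81 measured members 76 were below 0, and 69 were at least 1.5-fold lower, whereas 13.6% of the 22112 genes compared were at least 1.5-fold lower and the median of all genes was -0.06. Of the members 8 were at least 2-fold lower, against 3.21% of all genes. The 5 members above 0 were Cox6a2, Ndufa4l2, Cox4i2, Cox7a2l and Cox6b2, and the first 3 of them were at least 1.5-fold higher, against 15.1% of all genes. In a pool of whole retinas, fewer cells of a type and less RNA per cell cannot be told apart.

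**Figure D1:**
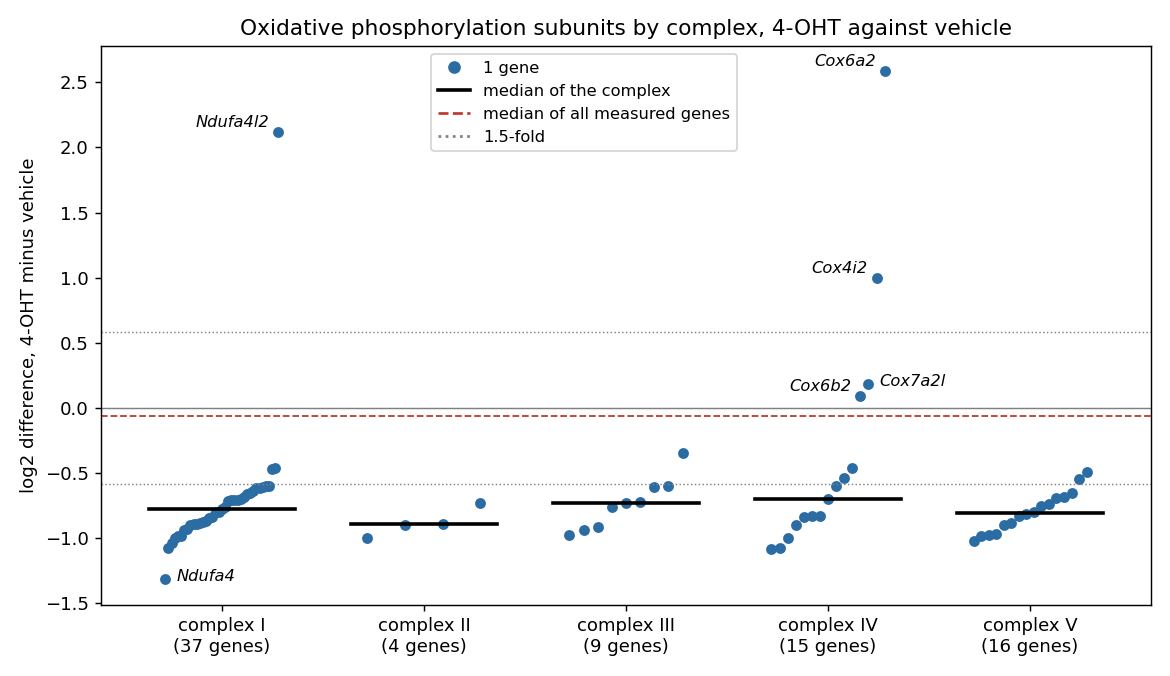
Log2 difference of 4-OHT minus vehicle (vertical axis) for the 81 measured subunit genes, 1 point a gene, grouped by complex (horizontal axis), with the median of each complex as a black line, the median of all genes as a red dashed line and 1.5-fold as dotted lines. The 5 complex medians lie between -0.89 and -0.70, and Cox6a2, Ndufa4l2, Cox4i2, Cox7a2l and Cox6b2 are the genes above 0.

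**Figure D2:**
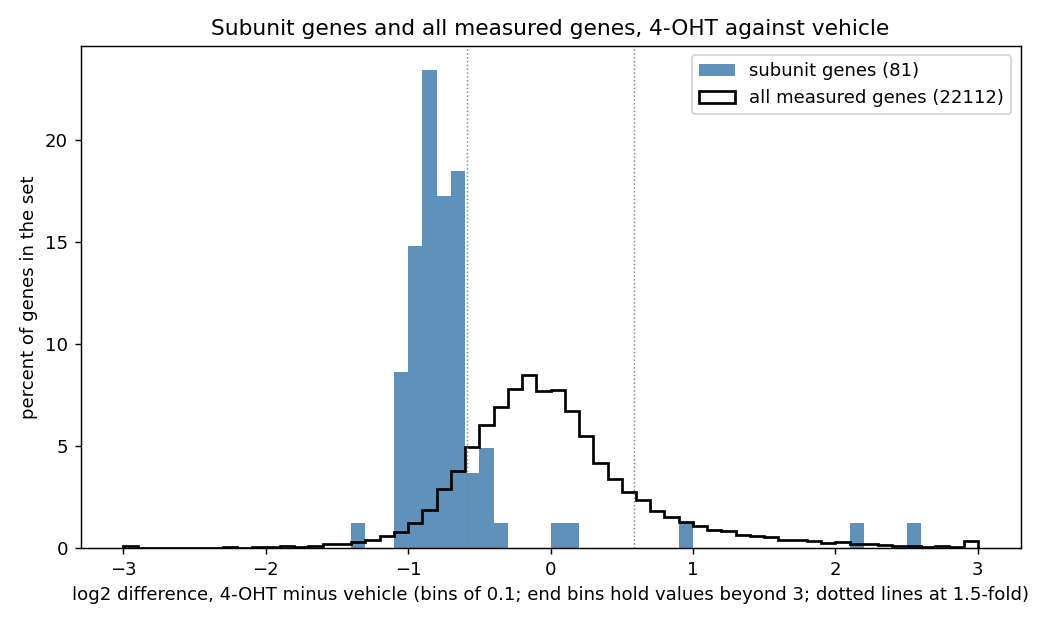
Percent of genes (vertical axis) by log2 difference of 4-OHT minus vehicle (horizontal axis, bins of 0.1) for the 81 subunit genes, in blue, and for all 22112 genes compared, as a black outline; dotted lines mark 1.5-fold. The bulk of the subunit genes fills a narrow band around -0.78 on the lower side of the broad distribution of all genes.

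The size of the shift can be set against the noise of a spot. Uqcrc2, a core protein of complex III, was printed 10 times on each array. Its log2 level, the log2 of signal over the array's 75th percentile, was 4.75 ± 0.04 with 4-OHT, 5.21 ± 0.04 with vitamin E added, 5.00 ± 0.04 with lutein added and 5.34 ± 0.02 in vehicle (SD, n = 10 spots). The 4 arrays were thus separated by more than the scatter of the spots, and the log2 difference of 4-OHT minus vehicle was -0.60 ± 0.03 (SD over 10 spots). Over all 256 probes with 10 spots the median SD of that difference between spots was 0.07. This is scatter within an array and says nothing of the spread between cultures.

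Bright genes as a class leaned the same way, and the members are bright. The brightest 20% of all measured genes had a median of -0.17, with 16.3% at least 1.5-fold lower, and among the brightest genes with a RefSeq mRNA accession the median was -0.24, with 18.4%. Among the 75 members without the 6 alternative isoform or paralogue genes, the correlation over genes between level and difference was 0.21 (Pearson's r, all points from the same 2 arrays). The members' median lay below the medians of both sets of bright genes.

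Markers of rods, the cells that the reporter marks, were lower too. Beside the counts of markers that follow, 13.6% of all genes were at least 1.5-fold lower with 4-OHT and 15.1% at least 1.5-fold higher. All 12 rod markers were at least 1.5-fold lower with 4-OHT, with a median of -1.25, from -5.35 for Gnat1, the rod transducin, to -0.67 for Rom1, a disc rim protein. The summed level of the rod list, in multiples of the array's 75th percentile, was 1270 with 4-OHT, 2160 with vitamin E added, 1640 with lutein added and 2740 in vehicle. The cone list summed to 182, 203, 193 and 122 on the same arrays, but Gngt2 alone made up 95.4% to 97.8% of it. Without Gngt2 the cone sum was 4.62, 5.94, 4.3 and 5.69, and the cone markers were split, with 4 of 8 at least 1.5-fold higher with 4-OHT and 2 at least 1.5-fold lower, Gnat2 at -1.30 and Cngb3 at -0.76. The Müller glia list summed to 103, 105, 109 and 94.3. Its 6 markers were split for 4-OHT minus vehicle, 3 below 0 and 3 above, from Dkk3 at -0.32 to Vim at 0.89. Bipolar markers summed to 61.6, 111, 84.1 and 79.1, of which Pcp2 made up 67.2% to 75.7%, and 3 of 5 were at least 1.5-fold lower with 4-OHT. Amacrine markers summed to 89.9, 98.6, 105 and 93.0, mostly Slc6a9, which differed by 0.04, while Gad1 at -1.01 and Gad2 at -0.80 were lower. Ganglion cell markers, 2 of 6 of them at least 1.5-fold lower, summed to 4.38, 5.57, 5.64 and 6.83. Pigment epithelium markers summed to 11.3, 8.34, 10.2 and 2.56, of which Dct made up 77.4% to 94.7%, with Rpe65 and Best1 not well above background on any array. The rod list followed the same order of arrays as the subunits, and its part in the result was not tested.

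Complex I, the NADH dehydrogenase and the largest complex, was represented by 37 genes with a median of -0.78, of which 34 were at least 1.5-fold lower. Its 7 catalytic core subunits, which hold the flavin and iron-sulfur centres, had a median of -0.70 and lay between -0.84 and -0.60. The 30 other genes had a median of -0.83. By name these include Ndufa4 and its paralogue Ndufa4l2, the lowest and the highest of them at -1.32 and 2.12. Ndufs1, the largest core subunit, had log2 levels of 4.33 with 4-OHT, 4.98 with vitamin E added, 4.64 with lutein added and 5.17 in vehicle, a difference of -0.84 for 4-OHT minus vehicle. Ndufv1, which binds NADH, had 5.79, 6.25, 6.11 and 6.50 on the same arrays, and its difference was -0.70. Among the other core subunits the difference was -0.80 for Ndufv2, -0.71 for Ndufs7, -0.70 for Ndufs3 and -0.60 for Ndufs8. The core thus lay within a narrow range, and in each of the 7 genes the 4-OHT array was the lowest and the vehicle array the highest.

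The lowest member of all was Ndufa4, named as a complex I gene and since assigned to complex IV. Its log2 level was 5.31 with 4-OHT, 6.08 with vitamin E added, 5.80 with lutein added and 6.63 in vehicle, so that it was 2.49-fold lower with 4-OHT. Ndufb3, a membrane arm subunit, had log2 levels of 4.67, 5.38, 5.02 and 5.75 in the same order and was 2.11-fold lower. Ndufa12, an accessory subunit, had 5.82, 6.49, 6.24 and 6.86 and was 2.05-fold lower, and Ndufa5 was 2.0-fold lower. At the other end Ndufa6 differed by -0.46 and Ndufv3 by -0.47. One of the 3 detected probes of Ndufv3, a dim one, went the other way at 0.07, whereas the other two gave -0.47 and -0.44.

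Complex II, succinate dehydrogenase, which also serves the citric acid cycle and has no mitochondrially encoded subunit, had the lowest median of the 5 complexes at -0.89. All 4 of its genes were at least 1.5-fold lower. Sdhc, a membrane anchor, had log2 levels of 3.47 with 4-OHT, 4.24 with vitamin E added, 3.85 with lutein added and 4.47 in vehicle, and it was 2.0-fold lower with 4-OHT. The flavoprotein gene Sdha differed by -0.90, the anchor gene Sdhd by -0.89 and the iron-sulfur subunit gene Sdhb by -0.73. The 4 genes shared 1 order of arrays, with vehicle the highest.

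Complex III, the cytochrome bc1 complex, had a median of -0.73 over 9 genes, 8 of them at least 1.5-fold lower. Uqcr11 was lowest at -0.97, with log2 levels of 6.19 with 4-OHT, 6.94 with vitamin E added, 6.55 with lutein added and 7.16 in vehicle. Cyc1, the cytochrome c1 that hands electrons to cytochrome c, had 4.35, 5.01, 4.74 and 5.29 and differed by -0.94. Uqcrb differed by -0.91, and Uqcrfs1, the Rieske iron-sulfur protein, by -0.61. Uqcrq stood out among these with log2 levels of 7.55, 7.56, 7.69 and 7.90: the difference of 4-OHT minus vehicle was -0.35, and with vitamin E it sat level with 4-OHT alone (0.01, a sign that turned under 2 of the scalings tried).

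Complex IV, cytochrome c oxidase, was the most varied and holds most of the alternative isoform genes. The median of its 15 measured genes was -0.70, with 9 at least 1.5-fold lower and 2 at least 1.5-fold higher. The 15 include the alternative isoform or paralogue genes Cox4i2, Cox6a2, Cox6b2, Cox7a1 and Cox7a2l. All of these lay above that median and raise it, so it understates the shift of the other genes of the complex. Cox7b, lowest at -1.08, had log2 levels of 5.32 with 4-OHT, 5.99 with vitamin E added, 5.64 with lutein added and 6.40 in vehicle. Cox6c had 6.58, 7.32, 6.93 and 7.66, a difference of -1.07, and Cox6b1 was 2.0-fold lower. The widely expressed isoform genes Cox7a2, Cox6a1, Cox8a and Cox4i1 differed by -0.90, -0.70, -0.60 and -0.54. Cox7a1, the heart and muscle isoform, was dim and differed by -0.46.

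Complex V, the ATP synthase, had a median of -0.81 over 16 genes, 14 of them at least 1.5-fold lower, and its parts differed in size of shift. The F1 head, which makes ATP, had a median of -0.69 over 5 genes, and its catalytic subunit gene Atp5b had log2 levels of 7.93 with 4-OHT, 8.45 with vitamin E added, 8.20 with lutein added and 8.66 in vehicle, a difference of -0.73. The other catalytic-head gene Atp5a1 differed by -0.65, and Atp5d by -0.55. The peripheral stalk, which holds the head still, had a median of -0.89 over 4 genes, with Atp5j at -0.98 and Atp5f1 (now Atp5pb) at -0.97. The 3 small membrane subunits had a median of -0.98, with Atp5k at -1.03, Atp5l at -0.98 and Atp5j2 at -0.76. The design places the brightest probes of all 3, and those of Atp5o in the stalk, Atp5g2 in the c-ring and Atp5c1 in the head, on a chromosome other than that of the gene, so these values may not be the gene's own. The value of Atp5c1 is also the median of the head. Of the 3 genes for the identical mature c-ring subunit, Atp5g1 differed by -0.90, Atp5g3 by -0.88 and Atp5g2 by -0.49. The other detected probe of Atp5g2 gave -0.39. The pseudogene entry Atp5c1-ps differed by -0.83, and its probe and that of Atp5c1 (-0.69) are both placed on mm9 chromosome 13 beside each other, so their signals may not be separate.

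The members above 0 were all alternative isoforms or paralogues, but not all such genes were above 0. Cox7a1 differed by -0.46, beside -0.90 for Cox7a2. Cox6a2, the heart and skeletal muscle isoform of a complex IV subunit, had log2 levels of 2.55 with 4-OHT, 0.40 with vitamin E added, 2.51 with lutein added and -0.04 in vehicle. It was thus 6.0-fold higher with 4-OHT, and high as well with lutein, whereas with vitamin E it was 1.35-fold above vehicle. Ndufa4l2, a paralogue of Ndufa4 known to be induced in low oxygen, had 3.99, 3.23, 3.40 and 1.87 on the same arrays, was 4.35-fold higher with 4-OHT and stayed above vehicle with either supplement. Cox4i2, the isoform of Cox4i1 known for its response to low oxygen, had 0.59, 0.07, 0.13 and -0.40 and was 1.99-fold higher. In each of these 3 pairs the partner was lower, Cox6a1 at -0.70, Ndufa4 at -1.32 and Cox4i1 at -0.54.

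Cox7a2l, which in mammals takes part in joining complexes III and IV into a supercomplex, had log2 levels of 6.49 with 4-OHT, 6.48 with vitamin E added, 6.53 with lutein added and 6.31 in vehicle. The difference of 4-OHT minus vehicle was 0.18 and turned below 0 with scaling on spike-in probes, against -0.90 for its relative Cox7a2. Cox6b2, the testis isoform, was dim and differed by 0.09, which also turned below 0 with spike-in scaling, whereas Cox6b1 was 2.0-fold lower. These 2 genes were close to vehicle while their partners were lower. Cox6a2, Ndufa4l2 and Cox4i2 are each read by 1 detected probe, and all 3 detected probes of Cox7a2l lay between 0.17 and 0.24.

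**Figure D3:**
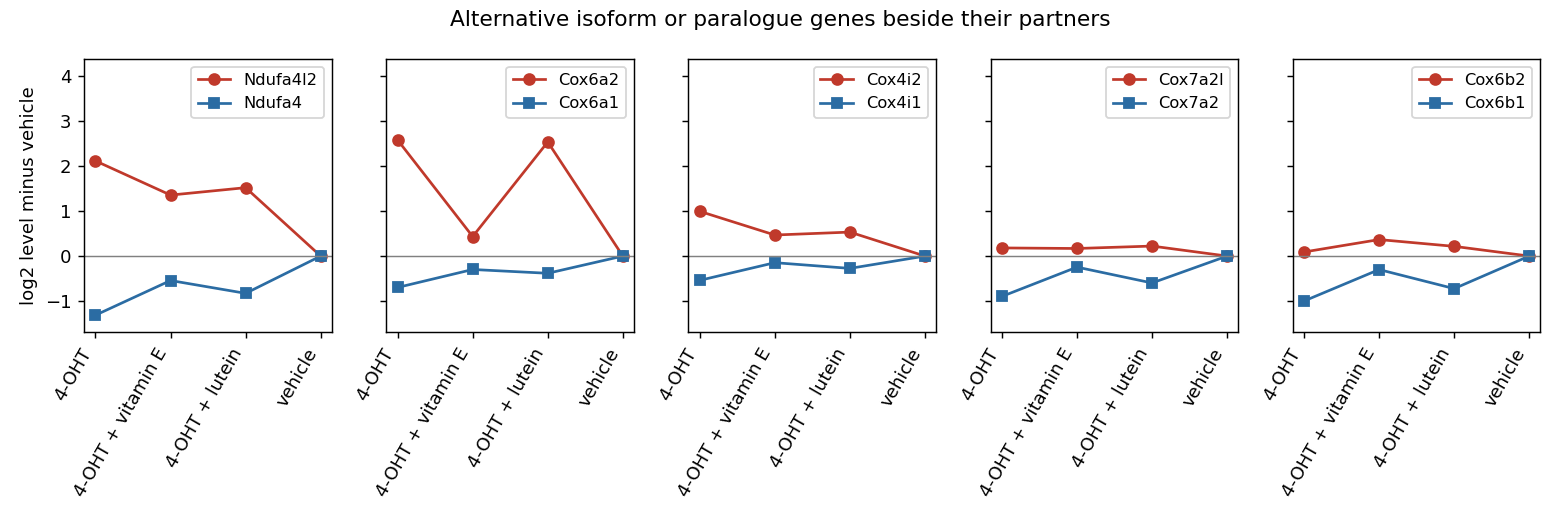
Log2 level minus the log2 level on the vehicle array (vertical axis) for 5 alternative isoform or paralogue genes (red circles) and their partners (blue squares) on the 4 arrays (horizontal axis); lines join the values of 1 gene. The red genes are the members above 0 with 4-OHT, and on that array they lie between 0.09 and 2.59. The blue genes lie between -1.32 and -0.54 there. Cox7a1, another alternative isoform gene, was at -0.46 and is not drawn.

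With vitamin E added to 4-OHT the members were higher than with 4-OHT alone, by a median log2 difference of 0.56, against 0.08 for all genes and 0.21 for the brightest 20%. Of the 81, 77 were above 0 and 31 were at least 1.5-fold higher, against 8.63% of all genes. That count moved with the scaling: it was 7 with quantile normalization and 74 with scaling on spike-in probes. The median of all genes was 0.09 and 0.38 under these. The share of all genes at least 1.5-fold higher was not counted under either, so 8.63% cannot be set beside 7 or 74. Sdhc led at 0.78, followed by Ndufa4 at 0.77, Uqcr11 at 0.75 and Cox6c at 0.74. Only Cox6a2 at -2.15 and Ndufa4l2 at -0.76 were at least 1.5-fold lower, against 16.5% of all genes. By complex the median was 0.56 for I, 0.62 for II, 0.53 for III, 0.45 for IV and 0.56 for V. The complex IV genes Cox4i2, Cox6a2, Cox6b2, Cox7a1 and Cox7a2l all lay below the median of their complex and pull it down.

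With lutein added the members were higher than with 4-OHT alone by less, with a median of 0.30 against 0.08 for all genes and 0.15 for the brightest 20%. Of the 81, 78 were above 0, yet 0 were at least 1.5-fold higher, against 4.06% of all genes. With scaling on spike-in probes 2 members were, and the share of all genes was not counted there. Ndufa4 led at 0.49 and Ndufv2 followed at 0.45. Ndufa4l2 at -0.60 was the member at least 1.5-fold lower, against 11.5% of all genes, and Cox4i2 stood at -0.46 and Cox6a2 at -0.04. Both supplement comparisons use the same 4-OHT array, as does the comparison of 4-OHT with vehicle, so an error of that array would move all of them.

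Set against vehicle instead, the arrays with a supplement were still lower for nearly all members. With vitamin E the median was -0.24, against -0.02 for all genes, and 75 of 81 were below 0. At this distance 0 members were at least 1.5-fold lower, against 7.0% of all genes, and Ndufa4l2, at 1.36, was the member at least 1.5-fold higher, against 4.43%. With lutein the median was -0.46, 76 were below 0 and 18 were at least 1.5-fold lower, against 7.11% of all genes. Cox6a2 at 2.54 and Ndufa4l2 at 1.52 were the 2 at least 1.5-fold higher, against 9.28%.

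The members thus ran in 1 order of arrays: 4-OHT lowest, then lutein, then vitamin E, then vehicle. This order held for 74 of the 81 members (91.4%) and for 20.8% of the 19381 genes that were well above background on all 4 arrays. The 7 members with another order were Cox4i2, Cox6a2, Cox6b2, Cox7a2l, Ndufa4l2, Ndufv3 and Uqcrq. Where 4 arrays are ranked, neighbours with a gap near the spot SD of 0.07 are not separated.

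**Figure D4:**
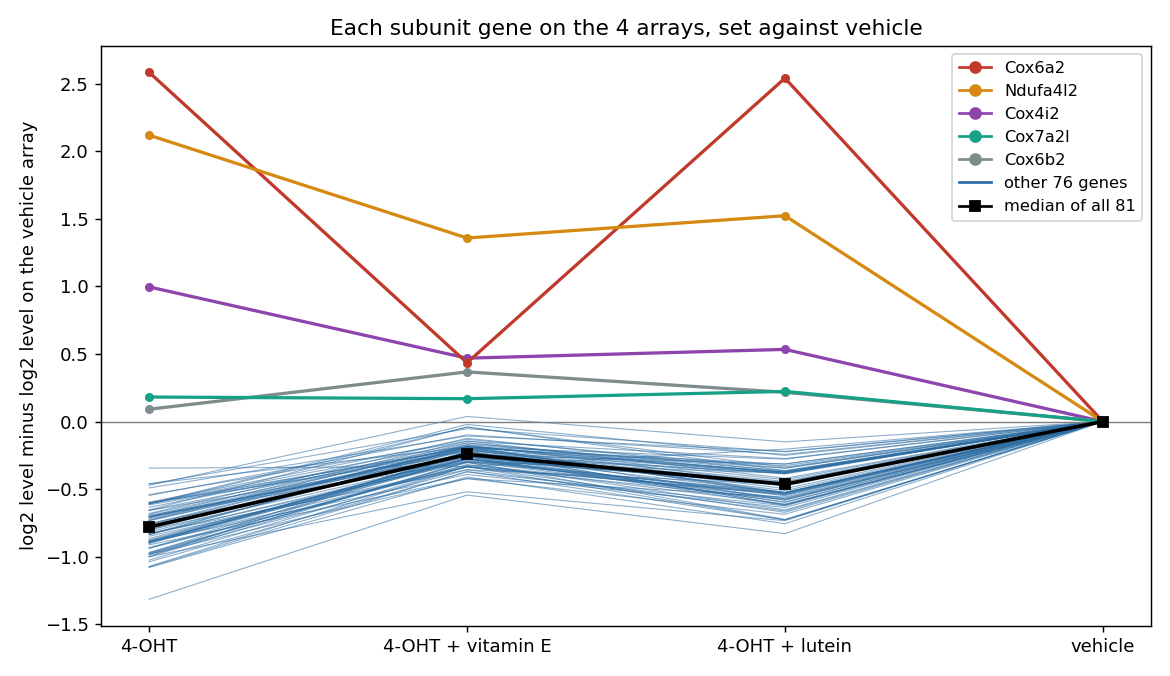
Log2 level minus the log2 level on the vehicle array (vertical axis) for each of the 81 subunit genes on the 4 arrays (horizontal axis); thin blue lines are 76 genes, coloured lines the 5 genes above vehicle with 4-OHT, and black squares the median. The median is -0.78 with 4-OHT, -0.24 with vitamin E added and -0.46 with lutein added, and Cox6a2 departs from the rest with lutein.

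The genes for the factors that build the complexes were mostly lower by less than the subunit genes, while those for complex II, and less so those for complex III, lay near the subunit genes. The 7 Ndufaf genes, assembly factors of complex I, had a median of -0.41 for 4-OHT minus vehicle, and 1 of 7 (14.3%) was at least 1.5-fold lower, Ndufaf3 at -0.90, a share near the 13.6% of all genes. Its log2 levels were 2.44 with 4-OHT, 3.12 with vitamin E added, 2.72 with lutein added and 3.35 in vehicle. The others were Ndufaf1 at -0.47, Ndufaf2 at -0.46, Ndufaf7 at -0.41, Ndufaf4 at -0.35, Ndufaf6 at -0.33 and Ndufaf5 at -0.11. Over the assembly factors of all 5 complexes, 48 measured of 51, the median was -0.47 and 46 were below 0. Of the 48, 14 (29.2%) were at least 1.5-fold lower and 0 at least 1.5-fold higher. The complex V list among them also holds regulators, so the 48 are not all factors that build a complex. The 4 assembly factors of complex II had a median of -0.81, with 3 at least 1.5-fold lower. The 6 of complex III had a median of -0.64, with 3 at least 1.5-fold lower, against a median of -0.73 for the complex III subunits. Lyrm7, for complex III, was well above background in vehicle alone, so its difference is a bound. Of the 48, Uqcc3, for complex III, was lowest at -1.12, followed by Usmg5 at -1.10 and Tmem126b, for complex I, at -1.10. Usmg5, which helps join ATP synthases in pairs, comes from the complex V list with regulators. Sco2, a copper chaperone of complex IV, was highest at 0.19. With vitamin E the median against 4-OHT was 0.34 and with lutein 0.23.

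Among genes that feed or serve the chain, some lists lay well past the 13.6% of all genes that were at least 1.5-fold lower with 4-OHT and others lay near it. Of the 17 genes of the citric acid cycle and pyruvate dehydrogenase, 11 (64.7%) were at least 1.5-fold lower, with a median of -0.68 and with Mdh2 lowest at -0.95; Suclg2 was not well above background in vehicle. Of cytochrome c and the carriers for ADP, ATP and phosphate, 3 of 4 were at least 1.5-fold lower, with Cycs, cytochrome c, lowest at -0.90. Of 12 genes of coenzyme Q synthesis 2 (16.7%) were, with a median of -0.29 and Coq7 lowest at -1.01, and of 17 genes of outer membrane pores and protein import 2 (11.8%) were, with a median of -0.42. Both shares lie near that of all genes. By sign, however, 12 of 12 genes of coenzyme Q synthesis and 16 of 17 of pores and import were below 0, against 54.9% of all genes. Coq3 was well above background in vehicle alone, so its difference is a bound. Of 11 genes of fission, fusion and mitophagy 5 (45.5%) were at least 1.5-fold lower, with Mfn2, a fusion protein, at -0.77, and 1 was higher, Bnip3, a mitophagy receptor, at 0.93. The 17 glycolytic enzymes had a median of 0.03: 0 were at least 1.5-fold lower and 2 (11.8%) at least 1.5-fold higher, against 15.1% of all genes. Hk2, an inducible hexokinase, was one of these at 0.96, and the lowest was Ldhb at -0.58.

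Most of the listed regulators of mitochondrial gene expression lay closer to 0 than the subunits. The list holds factors known to act on nuclear genes and also Tfam, Tfb1m, Tfb2m and Polrmt, which transcribe the mitochondrial genome. The median of the 14 was -0.20, with 2 (14.3%) at least 1.5-fold lower, near the 13.6% of all genes, and 0 higher. Nrf1 had log2 levels of 1.67 with 4-OHT, 1.98 with vitamin E added, 1.78 with lutein added and 1.79 in vehicle, a difference of -0.12 for 4-OHT minus vehicle. Gabpa, the DNA-binding part of GABP, differed by 0.12, Tfam, the mitochondrial transcription factor, by -0.06, the coactivator gene Ppargc1a by -0.32 and Esrra by -0.55. Ppargc1b, a coactivator related to Ppargc1a, was 2.13-fold lower. Esrrb, an estrogen-related receptor present in rods, had 0.43, 2.26, 1.35 and 3.64 and was 9.19-fold lower, and it too had vehicle highest and 4-OHT lowest.

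**Figure D5:**
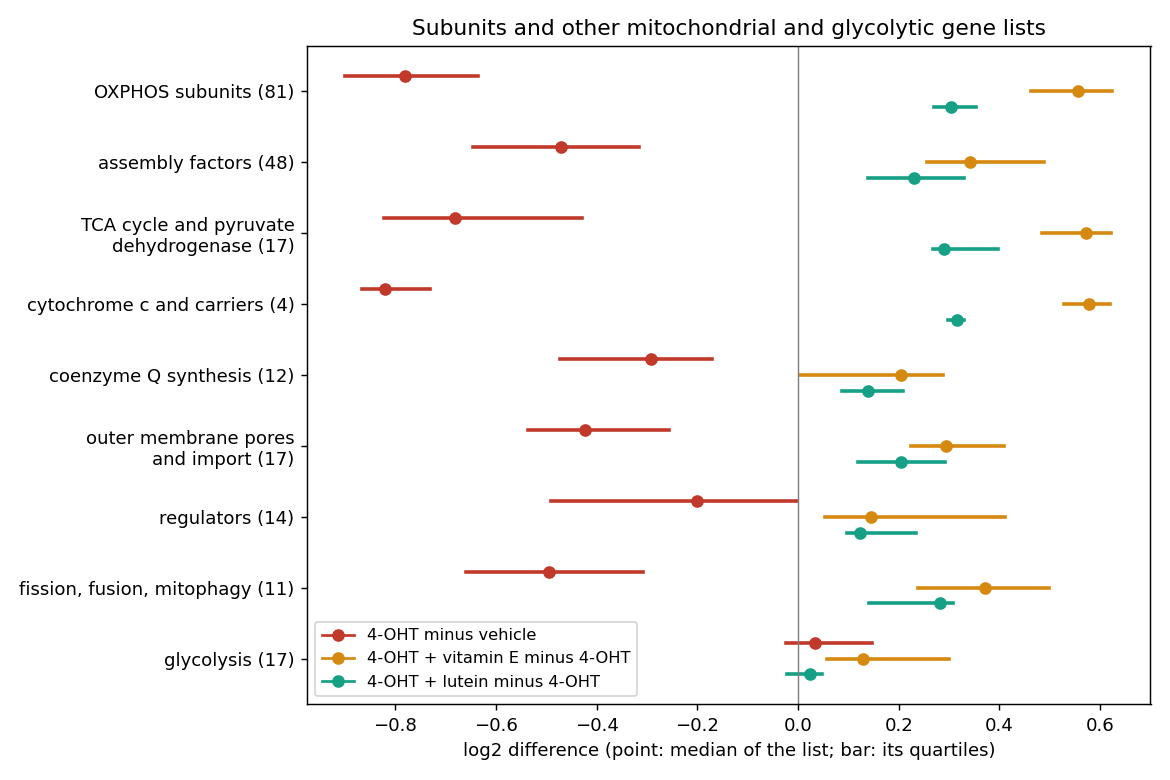
Median (point) and quartiles (bar) of the log2 difference (horizontal axis) for the subunits and 8 other gene lists (vertical axis, number of measured genes in brackets), for 4-OHT minus vehicle (red), 4-OHT with vitamin E minus 4-OHT (orange) and 4-OHT with lutein minus 4-OHT (green). For 4-OHT minus vehicle the medians run from -0.82 for cytochrome c and carriers to 0.03 for glycolysis, with the subunits at -0.78.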

How the data were processed

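Total RNA of 4 pools, 1 per group, was labelled with Cy3 and hybridised to 1-colour arrays, per the labels' protocols, and, per the submitters' processing notes, scanned images were quantified by Agilent Feature Extraction 10.7.3.1. The deposited intensity of each spot is background-subtracted and was not normalized between arrays, per the file headers; the lutein file holds it at 3 significant digits. The authors' deposited value table, an intensity divided by 1 number per array as comparison with the scanner values showed, served as an alternative.

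Each array had 62976 spots, 59305 of them for genes, with 51.3% to 54.5% well above background and 0 saturated. All 4 arrays share 1 slide, on which position and group cannot be told apart. Here intensities were divided by the array's 75th percentile of gene spots and log2-transformed, spots of a probe were averaged, and the brightest probe over the 4 arrays stood for a gene if well above background on at least 1 array; dim values were raised to the array's detection floor. A 1.5-fold difference is a size with no test, since there is 1 array per group, and the number of arrays limits the precision. Detected probes numbered 1 for 58 members and more for 23. The design places the probes of 65 members on the gene's chromosome, of 9 on another and of 7 on none.

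Genes were named by rule: the 3 lowest and 2 highest of complexes I, III, IV and V for 4-OHT against vehicle, all of complex II, the core of complex I, isoform genes, Ndufaf genes, members against their complex, the extremes of other lists, and fixed regulators; the text gives a selection, and some genes are not reported here. The members, lists and motifs were chosen with earlier results of these data known. Symbols were updated through RefSeq, which changed 1. Steps were tested on simulated data. Python 3.11.15, NumPy 2.4.6, pandas 2.3.3, matplotlib 3.10.9, R 4.3.3 and limma 3.58.1 were used.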

Additional observations from a re-analysis of the deposited data

How the results depend on the processing

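No paired analysis was possible because the 4 arrays carry only replicate number 1. No member median turned its sign under any alternative tried, and no called difference of a single member did. For 4-OHT against vehicle the median was -0.66 with quantile normalization and -0.98 with scaling on spike-in probes, and 8 members were past a 2-fold and 0 past a 4-fold limit. For vitamin E against 4-OHT the median was 0.46 with quantile normalization and 0.86 with spike-in scaling, and the members at least 1.5-fold higher numbered 7 and 74 under these, with 0 past 2-fold and 0 past 4-fold. For lutein against 4-OHT the median was 0.22 and 0.46, and 2 members were at least 1.5-fold higher with spike-in scaling. With vitamin E against vehicle the median was -0.14 with spike-in scaling, and 1 member was at least 1.5-fold lower with no filter on dim probes. With lutein against vehicle 0 were past 2-fold and 0 past 4-fold. The share of all genes past 1.5-fold was not counted under the alternative scalings, so the member counts there have no share beside them. Spike-in scaling moved the median of all genes too. It became -0.27 for 4-OHT against vehicle, 0.38 for vitamin E against 4-OHT and 0.24 for lutein against 4-OHT. The members' distance from it was -0.72, 0.47 and 0.22, the same as in the main scaling. Both scalings subtract 1 number per array from the log2 values, so this match was fixed in advance. With quantile normalization, which can change the distance, it was -0.59, 0.37 and 0.17. Leaving out the 6 alternative isoform or paralogue genes, the pseudogene entry or members with a probe not placed on the gene's chromosome, all chosen after seeing the data, moved no median by more than the spot SD. The order of arrays held for 71 to 74 members. Medians were counted as moved past the spot SD, since no replicate gives a spread.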
